A study of Mus musculus with 12 samples.

Results

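The genes of blood coagulation and fibrinolysis were followed in the liver of mice on a high-fat diet (HFD). The 33 members are the gene symbols of a list of clotting factors, their activating enzymes, fibrinogen chains, inhibitors and fibrinolytic proteins, and all 33 were found among the 23849 symbols of the expression table. The list names genes by the function of their products and not by a measured value, but it was chosen with earlier results of these data known. Of the 33, 26 averaged 1 FPKM or more across the livers and were tested, among 9806 symbols in all.

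RNA-seq was performed on whole liver from 12 male C57BL/6J mice aged 8 weeks, with 3 mice in each of 4 groups. All 12 mice ate HFD, and no liver from a normal diet was analysed here. Mice received vehicle (drinking water) or Libramed for 2 weeks by gavage, and livers were taken at ZT0 or at ZT12. HFD began weeks before the treatment and went on through it. According to the methods, gavage was given daily just before lights off. Time of day and time since the last gavage therefore cannot be told apart between ZT0 and ZT12. Libramed is the label's name for Policaptil Gel Retard, a blend of fibers that forms a gel in the gut. Zeitgeber time (ZT) counts hours from lights on, so that ZT0 is the end and ZT12 the start of the active phase of a mouse. The groups are called vehicle ZT0, Libramed ZT0, vehicle ZT12 and Libramed ZT12. Since each library is bulk liver, fewer cells of a type and less RNA per cell cannot be told apart.

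Clotting is a cascade of proteases in plasma, most of which are made by hepatocytes. Tissue factor with factor VII, or the contact system of factor XII, prekallikrein and high molecular weight kininogen, starts a series of cleavages that ends in thrombin. Thrombin cuts fibrinogen, a hexamer with a pair each of alpha, beta and gamma chains encoded by Fga, Fgb and Fgg, into fibrin, and plasmin later dissolves the clot. Several factors need a vitamin K dependent carboxylation to bind membranes, and fibrinogen is an acute-phase protein whose hepatic transcription responds to interleukin-6. Daily rhythms in plasma clotting factors are known in rodents and in humans.

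Values are FPKM as the authors deposited them, that is, sequenced fragments scaled to the length of the transcript and to the size of the library. Depth was known only relative to other libraries, with a highest value 1.80 times the lowest. The first principal component separated the ZT0 from the ZT12 livers. Of 8 clock genes listed as a check of the time labels, 7 were tested and all 7 changed between ZT0 and ZT12 in both treatments (limma, adjusted p under 0.05). The hepatocyte markers summed to between 33317 and 50773 FPKM in every library, although Alb was listed at 0 in all 12 and could not be used. Platelet and megakaryocyte markers summed to at most 6.98 FPKM.

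The 3 fibrinogen genes lie next to each other on mouse chromosome 3 (mm10, GENCODE vM21). Fgg occupies chr3:83007724-83015049 on the plus strand, Fga chr3:83026076-83033627 on the plus strand, and Fgb chr3:83040141-83049863 on the minus strand, with gaps of 11026 and 6513 bp between them. Hrg, which encodes histidine-rich glycoprotein, lies at chr16:22951072-22961656. Their promoters are shown because these 4 genes held the largest changes over time among the abundant members, the fibrinogen chains downwards and Hrg upwards. The letters end at the base before the annotated gene start and come from RefSeq (GRCm38.p6). The windows are chr3:83025903-83026075 (plus strand, 173 bases) for Fga, chr3:83049864-83050113 (minus strand, 250 bases) for Fgb, chr3:83007474-83007723 (plus strand, 250 bases) for Fgg, and chr16:22950822-22951071 (plus strand, 250 bases) for Hrg. They read 5′ to 3′ on the strand of the gene, and capitals mark matches to the motifs named after them.
Fga: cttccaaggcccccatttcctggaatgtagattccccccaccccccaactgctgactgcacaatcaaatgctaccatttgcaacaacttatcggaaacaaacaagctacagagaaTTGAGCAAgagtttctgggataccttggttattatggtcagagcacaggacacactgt
Fgb: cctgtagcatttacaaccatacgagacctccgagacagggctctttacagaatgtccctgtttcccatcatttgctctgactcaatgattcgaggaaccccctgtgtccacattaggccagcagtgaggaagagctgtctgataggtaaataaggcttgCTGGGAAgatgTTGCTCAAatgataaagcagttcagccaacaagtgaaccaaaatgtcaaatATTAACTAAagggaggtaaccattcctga
Fgg: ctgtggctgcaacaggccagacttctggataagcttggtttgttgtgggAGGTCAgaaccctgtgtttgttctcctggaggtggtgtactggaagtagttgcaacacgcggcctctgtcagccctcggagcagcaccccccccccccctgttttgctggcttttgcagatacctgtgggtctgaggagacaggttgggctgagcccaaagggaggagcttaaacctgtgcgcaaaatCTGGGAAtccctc
Hrg: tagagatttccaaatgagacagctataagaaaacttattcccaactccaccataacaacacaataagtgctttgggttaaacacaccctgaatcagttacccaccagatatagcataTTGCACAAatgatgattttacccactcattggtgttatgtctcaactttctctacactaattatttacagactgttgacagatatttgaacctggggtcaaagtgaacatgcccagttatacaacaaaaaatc

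The motifs were searched on both strands and were chosen after the expression values were seen. The C/EBP motif TTGCNNAA, found in 9.55% of 27025 mouse promoters of 250 bases, occurred in the Fga, Fgb and Hrg windows. CTGGGAA, the core of the type II interleukin-6 response element, occurred in the Fgb and Fgg windows and in 9.08% of all promoters. The Fgb window also held the HNF1 half-site GTTAAT (6.52% of all promoters), in which the match to the D-box motif TTANNTAA (5.55%) overlaps it. AGGTCA, which is only the core of the ROR element (13.8%), was found in the Fgg window, and the E-box CACGTG (6.05%) in none of the 4. These matches describe letters and no factor was measured on them.

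Fibrinogen transcripts were the most abundant of these genes and fell from ZT0 to ZT12. The 3 chains together made up 1.42% ± 0.04 (SD, n = 3) of all FPKM in the vehicle ZT0 livers and 0.901% ± 0.053 at vehicle ZT12. With Libramed the share was 1.05% ± 0.06 at ZT0 and 0.714% ± 0.028 at ZT12 (SD, n = 3 each). All members together took 2.40% ± 0.05, 1.94% ± 0.11, 2.02% ± 0.11 and 1.71% ± 0.05 in the same order of groups, so that fibrinogen was the larger part of the RNA of these genes at ZT0 with vehicle and the smaller part at ZT12 with Libramed.

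Fga, the alpha chain, stood at 2009, 2069 and 2319 FPKM in vehicle ZT0, at 1414, 1541 and 1514 in Libramed ZT0, at 1194, 1385 and 1341 in vehicle ZT12, and at 1126, 1057 and 1033 in Libramed ZT12. Fgg, the gamma chain, read 3918, 3603 and 3693 FPKM, then 2511, 2650 and 2643, then 2190, 2238 and 2448, and finally 2062, 1820 and 1765 in the same order of groups. For both genes no 2 of the 4 groups overlapped, and the order was vehicle ZT0, Libramed ZT0, vehicle ZT12 and Libramed ZT12 from high to low. Of the 9806 genes tested, 0.275% had 4 groups of which no 2 overlapped. Fgb, the beta chain, gave 3491, 3683 and 3798 FPKM in vehicle ZT0, 2768, 2843 and 3154 in Libramed ZT0, 2494, 2678 and 3036 in vehicle ZT12, and 2423, 2271 and 2139 in Libramed ZT12. Here the Libramed ZT0 and vehicle ZT12 livers overlapped, while vehicle ZT0 lay above and Libramed ZT12 below every other liver.

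**Figure D1:**
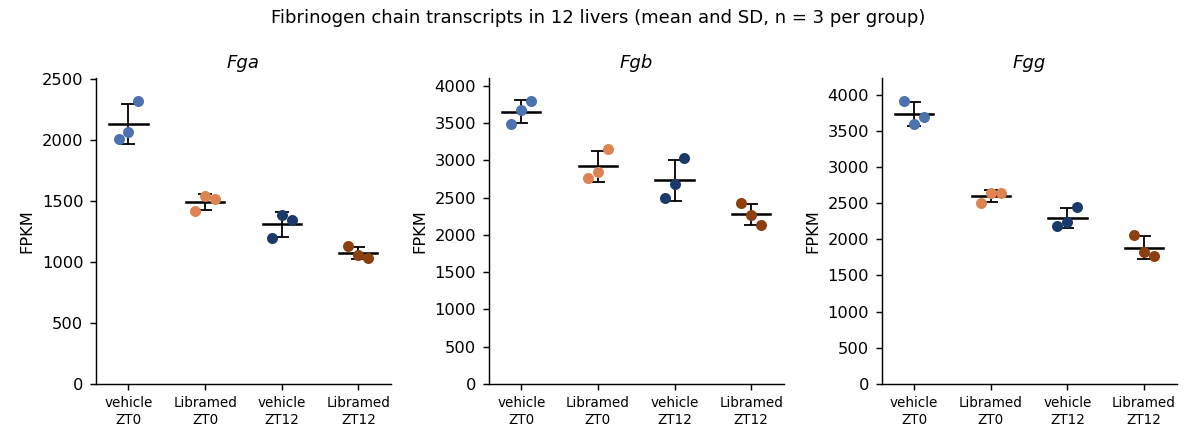
FPKM (y axis, from 0) of Fga, Fgb and Fgg in each of the 12 livers by group (x axis), with the mean as a line and the SD as a bar (n = 3). The vehicle ZT0 livers are highest and the Libramed ZT12 livers lowest in all 3 panels, and only for Fgb do the Libramed ZT0 and vehicle ZT12 groups overlap.

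With vehicle, the mean of Fga at ZT12 was 61.3% of that at ZT0 and the mean of Fgg 61.3%, while Fgb kept 74.8%. On the log2(FPKM + 1) scale Fga fell by 0.71 ± 0.11 (SE) and Fgg by 0.71 ± 0.10 (limma, adjusted p = 0.0127 and 0.0101 over all genes). The difference of Fgb was -0.42 ± 0.11, with an adjusted p of 0.0592 by limma. With Libramed, Fga fell by 0.47 ± 0.09 and Fgg by 0.47 ± 0.10 (limma, adjusted p = 0.0162 and 0.0244), Fgg to 72.4% of its ZT0 mean, and Fgb differed by -0.36 ± 0.10 (adjusted p = 0.0587). With vehicle the call was lost in 5 of 15 alternatives for Fga and in 4 for Fgg. With Libramed it was lost in 4 of 15 for Fga and in 8 for Fgg. Over both treatments all 3 chains fell, Fga by 0.59 ± 0.06, Fgb by 0.39 ± 0.07 and Fgg by 0.59 ± 0.06 (limma, adjusted p = 6.97e-05, 0.00162 and 5.91e-05). These 3 calls held under every alternative that was run. The exact permutation test within treatments gave p = 0.005 for each of them, the smallest that 400 arrangements allow (two-sided).

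The groups given Libramed had less fibrinogen RNA at each time, by tests that did not survive adjustment over all genes. At ZT0, the Libramed mean was 69.9% of the vehicle mean for Fga, 79.9% for Fgb and 69.6% for Fgg. The log2 differences were -0.52 ± 0.11, -0.33 ± 0.11 and -0.52 ± 0.10 (limma, unadjusted p = 0.00195, 0.0206 and 0.00133; adjusted p = 0.316, 0.502 and 0.309). At ZT12 the Libramed means were 82.1%, 83.2% and 82.1% of vehicle, with log2 differences of -0.28 ± 0.09, -0.26 ± 0.10 and -0.29 ± 0.10 (limma, unadjusted p = 0.0144, 0.0398 and 0.0204; adjusted p = 0.729 for each). Over both times, Fga differed by -0.40 ± 0.06, Fgb by -0.29 ± 0.07 and Fgg by -0.40 ± 0.06, with adjusted p of 0.0804, 0.281 and 0.0804 by limma and exact permutation p = 0.005 for each. All 6 Libramed livers lay below all 3 vehicle livers of their own time for each chain. With a minimum mean of 5 FPKM, Fgg passed the adjusted threshold over both times (limma, adjusted p = 0.0430). In a version of Cyber-T, the kind of test the study used, Fga alone of the 3 chains had p under 0.05 at ZT0 and none had it at ZT12. Fgb also lost it with no minimum at either time, under quantile normalization at ZT0 and under median-ratio scaling at ZT12. Under the replicate block Fgb and Fgg lost it at ZT12. With 1 liver left out, the ZT12 differences lost it without vehicle ZT12 replicate 2 (Fga and Fgb), vehicle ZT12 replicate 3 (Fgb and Fgg), Libramed ZT12 replicate 2 (Fgb and Fgg) or Libramed ZT12 replicate 3 (all 3), and that of Fgb at ZT0 without vehicle ZT0 replicate 3 or Libramed ZT0 replicate 1.

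The drop over time was smaller with Libramed in these livers, but the difference between the drops was within the error. The interaction of time and treatment was 0.23 for Fga (95% CI -0.05 to 0.51), 0.06 for Fgb (-0.24 to 0.37) and 0.24 for Fgg (-0.03 to 0.51) on the log2 scale, with unadjusted p of 0.0936, 0.651 and 0.0797 by limma. The comparisons within vehicle, within Libramed, at ZT0 and at ZT12 share livers, so their values stand side by side here and are not independent of each other. Among the 26 members, 2 had p under 0.05 for the interaction, F12 and F3, against 6.63% of all genes tested, and 0 passed adjustment (limma).

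The chains did not move in one proportion. Fgg to Fga stayed near one ratio, with means of 1.76 ± 0.18 in vehicle ZT0, 1.75 ± 0.03 in Libramed ZT0, 1.76 ± 0.12 in vehicle ZT12 and 1.75 ± 0.07 in Libramed ZT12 (SD, n = 3). The ratio of Fgb to Fga was 1.74, 1.78 and 1.64 in vehicle ZT0, 1.96, 1.84 and 2.08 in Libramed ZT0, 2.09, 1.93 and 2.26 in vehicle ZT12, and 2.15, 2.15 and 2.07 in Libramed ZT12. All vehicle ZT0 livers lay below every other liver. From ZT0 to ZT12 over both treatments this ratio differed by 0.20 on the log2 scale (exact permutation within treatments, two-sided p = 0.01, adjusted p = 0.03 over 6 tests of ratios). Between treatments over both times it differed by 0.11 (exact permutation p = 0.08, adjusted p = 0.12). The ratio of Fgg to Fgb differed by -0.20 over time (exact permutation p = 0.01, adjusted p = 0.03) and by -0.11 between treatments (exact permutation p = 0.04, adjusted p = 0.08). The ratios were chosen after the values were seen.

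**Figure D2:**
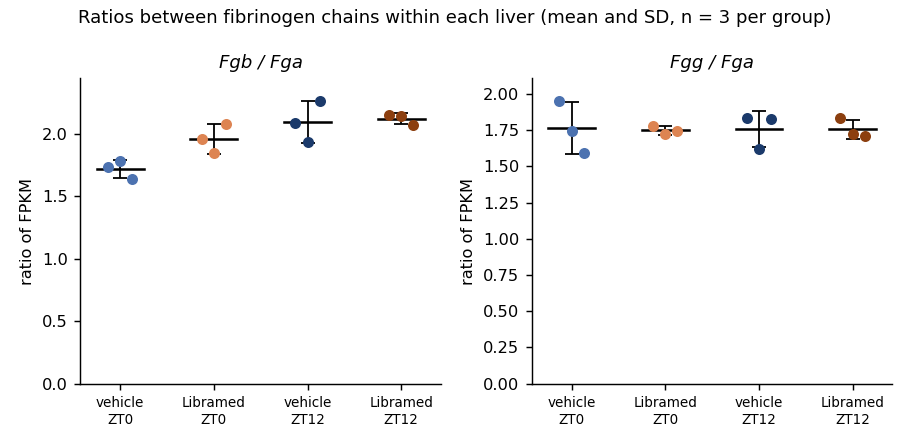
Ratio of FPKM (y axis, from 0) between fibrinogen chains in each liver by group (x axis), Fgb to Fga on the left and Fgg to Fga on the right, with mean and SD (n = 3). The Fgb to Fga ratio is lowest in vehicle ZT0, at 1.72 ± 0.07, and the Fgg to Fga means lie between 1.75 and 1.76 in all groups.

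Most other genes listed as induced by interleukin-6 in hepatocytes were lower with Libramed at ZT0, as the chains were, at unadjusted p. All 10 of the 10 listed had a lower mean log2 level in Libramed ZT0. Of these, 7 had an unadjusted p under 0.05, against 9.23% of all genes tested in either direction, and 0 an adjusted one (limma). Socs3 read 14.9, 5.86 and 4.59 FPKM in vehicle ZT0 and 17.2, 4.46 and 4.69 in Libramed ZT0. Its groups overlapped, and its highest value was in Libramed ZT0. The summed level of the 10 was 14123 to 26744 FPKM in vehicle ZT0 against 7064 to 10256 in Libramed ZT0. Saa1, a serum amyloid A gene, had 3252 to 9291 FPKM in vehicle ZT0 and 140 to 593 in Libramed ZT0. At ZT12 the sums overlapped, at 9450 to 32799 FPKM with vehicle and 8190 to 26620 with Libramed, and all 10 had a lower mean log2 level with Libramed (median difference -0.53), 0 of them with p under 0.05. Over both times 9 of the 10 were lower with Libramed at an unadjusted p under 0.05, with a median difference of -0.67, against 10.5% of all genes tested in either direction. Between ZT0 and ZT12 with vehicle, 5 of the 10 were higher and 5 lower, 0 of them with p under 0.05, and with Libramed 4 were higher and 1 lower at that threshold. Over both treatments 3 were higher and 1 lower at ZT12 at an unadjusted p under 0.05, where 21.8% of all genes tested were called higher. The lower one was Lbp, which encodes lipopolysaccharide binding protein, and it fell by 0.47 on the log2 scale (limma, adjusted p = 0.0356). Macrophage markers summed to 73.2 to 84.9 FPKM in vehicle ZT0 and to 42.5 to 67.7 in Libramed ZT0. Of the 8 tested, 5 were lower with Libramed at ZT0 at an unadjusted p under 0.05, against 9.23% of all genes tested in either direction. At ZT12 the macrophage sums overlapped, at 36.5 to 97.1 FPKM with vehicle and 46.0 to 70.8 with Libramed. There 0 of the 8 had an unadjusted p under 0.05, and over both times 1 had it. The hepatocyte markers summed to 35264 to 39071 FPKM in vehicle ZT0 against 41424 to 50773 in Libramed ZT0, and to 33317 to 37530 in vehicle ZT12 against 37629 to 45500.5 in Libramed ZT12, so that these sums were higher in every Libramed liver than in the vehicle livers of the same time. Apoa1 was the larger part of each sum, with 21895 to 23584 FPKM in vehicle ZT0 and 25809 to 32458 in Libramed ZT0. At ZT12 it had 20223 to 23234 FPKM with vehicle and 23384 to 28840 with Libramed. Of the 6 hepatocyte markers tested, Apoa1 was the only one with an unadjusted p under 0.05 between treatments at ZT0 (limma), against 9.23% of all genes tested. At ZT12, 3 of the 6 had it, against 6.74% of all genes tested. These were Ass1 and Cps1, higher with Libramed, and Apob, lower, and not Apoa1. Over both times 4 of these 6 were higher and 1 lower with Libramed at an unadjusted p under 0.05, against 10.5% of all genes tested in either direction.

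Of the 7 clock genes tested, 1 had an unadjusted p under 0.05 between treatments at ZT0 (limma), against 9.23% of all genes tested. With Libramed 4 of the 7 had a higher and 3 a lower mean log2 level at ZT0, and 0 passed adjustment. Dbp, a clock-controlled transcription factor that binds D-box elements, was at 17.9, 6.97 and 1.85 FPKM in vehicle ZT0 and at 18.2 to 27.2 in Libramed ZT0 (limma, unadjusted p = 0.0350, adjusted p = 0.526). Nr1d1, the clock repressor also called REV-ERB alpha, read 56.7, 33.7 and 21.4 FPKM in the vehicle ZT0 livers, and 41.2 to 57.8 in Libramed ZT0. For the interaction of time and treatment, 3 of the 7 clock genes tested had an unadjusted p under 0.05 (Dbp, Per1 and Per2; limma), against 6.63% of all genes tested. The part of the acute-phase, macrophage, hepatocyte and clock genes in the differences between treatments was not tested.

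Over time, 4 of the 26 members tested passed an adjusted p under 0.05 with vehicle, which is 15.4% against 10.4% of all genes tested (limma). Beside Fga and Fgg these were Mcfd2, which was lower at ZT12, and Hrg, which was higher. With Libramed the count was 5 of 26, or 19.2% against 12.4% of all genes, with F7 and Hrg higher and Fga, Fgg and Mcfd2 lower. Over both treatments it was 11 of 26, or 42.3% against 30.0% of all genes. F5, F7, Hrg, Kng1 and Proz were higher at ZT12 (5 of 26, against 15.9% of all genes) and Fga, Fgb, Fgg, Ggcx, Mcfd2 and Tfpi lower (6 of 26, against 14.1%). The median log2 difference of the 26 members was 0.10 over both treatments and that of all genes tested 0.01. By Cyber-T 0 members passed within either treatment. The counts within one treatment fell when single livers were left out, and those of all genes fell too. With vehicle the count was 0 when replicate 3 of vehicle ZT0 or replicate 2 of vehicle ZT12 was left out, 1 without replicate 3 of vehicle ZT12, and 2 without replicate 1 of either group. All genes called with vehicle went from 1020 to 279 without vehicle ZT0 replicate 3. They were 226 without vehicle ZT12 replicate 2 and 277 without vehicle ZT12 replicate 3. With Libramed the member count was 0 without Libramed ZT12 replicate 2 or 3 and 1 without any one of the 3 Libramed ZT0 livers. In these fits all genes called with Libramed went from 1212 to between 535 and 649. Under quantile normalization the split over both treatments was 2 higher and 7 lower, where it was 5 and 6 without it.

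Hrg, whose product binds plasminogen, fibrin and heparin in plasma, rose most of the members called. Its values were 545, 657 and 542 FPKM in vehicle ZT0, 557, 562 and 670 in Libramed ZT0, 786, 830 and 932 in vehicle ZT12, and 851, 748 and 824 in Libramed ZT12. Each of the 6 ZT12 livers lay above each of the 6 ZT0 livers, and within each time the treatments overlapped. Hrg rose by 0.55 ± 0.12 with vehicle and by 0.44 ± 0.11 with Libramed (limma, adjusted p = 0.0329 and 0.0398), to 146% and 136% of ZT0. Each of these calls within one treatment was lost in 9 of 15 alternatives, among them no minimum on FPKM, quantile normalization, the replicate block and Cyber-T, and without any one of 5 of the 6 livers (adjusted p up to 0.124 with vehicle and 0.409 with Libramed). Over both treatments the rise was 0.49 ± 0.08 (limma, adjusted p = 9.02e-04; exact permutation p = 0.005), a call that held under every alternative run. Its neighbours on chromosome 16 are the kininogen genes Kng2 and Kng1, with gaps of 24197 and 28382 bp between neighbours.

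Mcfd2 encodes the partner of Lman1 in the receptor that carries factors V and VIII out of the endoplasmic reticulum. It was at 142, 141 and 144 FPKM in vehicle ZT0, 131, 127 and 133 in Libramed ZT0, 106, 104 and 118 in vehicle ZT12, and 108, 97.0 and 99.4 in Libramed ZT12. All ZT12 livers lay below all ZT0 livers, and at ZT0 the Libramed livers lay below those of vehicle. Over both treatments Mcfd2 fell by 0.37 ± 0.05 (limma, adjusted p = 4.39e-04). Its calls within one treatment were lost in 8 of 15 alternatives with vehicle and in 7 with Libramed. Lman1 itself averaged between 61.8 and 73.3 FPKM in the 4 groups and did not pass the adjusted test in any comparison. It was lower with Libramed over both times by 0.16 on the log2 scale at an unadjusted p of 0.0453 (limma, adjusted p = 0.475), a call lost in 8 of 19 alternatives.

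F5, the cofactor of factor Xa, was at 38.4, 51.9 and 47.1 FPKM in vehicle ZT0, 44.5, 45.2 and 49.1 in Libramed ZT0, 58.0, 59.4 and 57.8 in vehicle ZT12, and 49.9, 47.9 and 54.6 in Libramed ZT12. The vehicle ZT12 livers were above all other livers. The difference over time was 0.36 ± 0.12 with vehicle and 0.24 ± 0.07 over both treatments (limma, adjusted p = 0.105 and 0.0266). The call over both treatments was lost in 5 of 19 alternatives, under quantile normalization and without Libramed ZT0 replicate 1 or 2, vehicle ZT12 replicate 2 or Libramed ZT12 replicate 3 (adjusted p up to 0.103). At ZT12 the Libramed livers were lower by 0.20 ± 0.07 (limma, unadjusted p = 0.0268, adjusted p = 0.729), and the unadjusted call was lost in 8 of 15 alternatives, 5 of which left out 1 liver. F8, the cofactor of factor IXa that in liver comes mainly from the endothelium, had 0.298 to 0.590 FPKM and was not tested.

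The vitamin K dependent factors leaned the other way from fibrinogen. All 7 had a higher mean log2 level at ZT12 over both treatments, of which F7 and Proz passed the adjusted test and 5 had p under 0.05 (F7, F9, Proc, Pros1 and Proz; limma). The background was 15.9% of all genes called higher at the adjusted threshold and 21.8% at the unadjusted one. The median difference of the 7 was 0.20. Together they had 2183 ± 53 FPKM in vehicle ZT0, 2431 ± 140 in vehicle ZT12, 2313 ± 137 in Libramed ZT0 and 2513 ± 134 in Libramed ZT12 (SD, n = 3), and F2, prothrombin, was the larger part in each group. As a share of all FPKM of a library they took 0.325% ± 0.007 in vehicle ZT0, 0.346% ± 0.015 in vehicle ZT12, 0.345% ± 0.011 in Libramed ZT0 and 0.343% ± 0.008 in Libramed ZT12, so that with Libramed the mean share was not higher at ZT12.

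F7, the protease that tissue factor activates, was at 65.0, 57.1 and 65.6 FPKM in vehicle ZT0, 62.5, 70.5 and 74.1 in Libramed ZT0, 64.1, 86.9 and 86.3 in vehicle ZT12, and 96.4, 91.9 and 83.3 in Libramed ZT12. With Libramed the times did not overlap, and with vehicle replicate 1 at ZT12 lay within the ZT0 range. Over both treatments F7 rose by 0.36 ± 0.09 (limma, adjusted p = 0.0103), a call that held under every alternative run. With Libramed alone the rise was 0.39 ± 0.10 (limma, adjusted p = 0.0447). This call was lost in 12 of 15 alternatives, among them without any one of the 6 livers. The others were no minimum on FPKM, median-ratio scaling, quantile normalization, the replicate block, the fit of all 12 samples and Cyber-T. Proz, the cofactor of the protein Z dependent inhibitor of factor Xa, was at 96.8, 104 and 103 FPKM in vehicle ZT0, 90.3, 103 and 103 in Libramed ZT0, 112, 128 and 130 in vehicle ZT12, and 111, 113 and 110 in Libramed ZT12. All ZT12 livers lay above all ZT0 livers, and Proz rose by 0.23 ± 0.06 over both treatments (limma, adjusted p = 0.0129). Its call was lost under quantile normalization (adjusted p = 0.0707).

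The other 5 vitamin K dependent genes did not pass the adjusted test over time. F2 averaged between 1164 and 1277 FPKM and F10, factor X, between 203 and 217 FPKM in the 4 groups, with log2 differences over time of 0.11 (95% CI -0.02 to 0.25) and 0.01 (-0.13 to 0.14). F9, factor IX, had group means of 64.3 ± 10.2 and 76.5 ± 2.1 FPKM at ZT0 and ZT12 with vehicle and 61.5 ± 3.8 and 69.1 ± 3.2 with Libramed (SD, n = 3). Its difference over both treatments was 0.21 ± 0.08 (limma, adjusted p = 0.0530). Proc, protein C, which turns off factors Va and VIIIa, had means of 572 ± 21 FPKM at ZT0 and 661 ± 11 at ZT12 with vehicle and had means of 666 ± 71 at ZT0 and 732 ± 56 at ZT12 when Libramed was given. The difference was 0.17 ± 0.07 over both treatments (limma, adjusted p = 0.0672) and was -0.01 under quantile normalization. With Libramed over both times Proc was higher by 0.18 ± 0.07 (limma, unadjusted p = 0.0189, adjusted p = 0.395). Pros1, the protein S cofactor of protein C, had 13.5 ± 0.8 FPKM in Libramed ZT0 against 16.3 ± 1.1 in vehicle ZT0 (difference -0.25 ± 0.09, limma, unadjusted p = 0.0272, adjusted p = 0.520), and 17.1 ± 1.9 and 17.3 ± 1.8 at ZT12. With Libramed the Pros1 livers of ZT12 lay above those of ZT0, by 0.32 ± 0.10 (limma, unadjusted p = 0.0163, adjusted p = 0.0864), and over both treatments the difference was 0.20 ± 0.07 (limma, adjusted p = 0.0539). F7, F10 and Proz are neighbours on chromosome 8, with gaps of 1498 and 4237 bp.

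The enzymes of the vitamin K cycle did not share that direction. Ggcx, the carboxylase, had means of 21.2 ± 1.1 and 17.6 ± 1.5 FPKM at ZT0 and ZT12 with vehicle and 21.6 ± 2.6 and 19.0 ± 1.2 with Libramed (SD, n = 3), and fell by 0.21 ± 0.07 over both treatments (limma, adjusted p = 0.0362). The adjusted p rose to at most 0.0809 in 9 of 19 alternatives, 8 of which left out 1 liver. Vkorc1, which recycles the vitamin, had one liver of vehicle ZT0 at 477 FPKM and the other 11 between 309 and 366. Its difference over time did not pass the adjusted test.

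Kng1, which encodes kininogen, the source of bradykinin, was at 1021, 940 and 1058 FPKM in vehicle ZT0, 862, 980 and 1096 in Libramed ZT0, 1062, 1277 and 1396 in vehicle ZT12, and 1311, 1218 and 1105 in Libramed ZT12. Within each treatment all ZT12 livers lay above all ZT0 livers. Kng1 rose by 0.30 ± 0.09 over both treatments (limma, adjusted p = 0.0214), and the call was lost under quantile normalization and without Libramed ZT0 replicate 1, vehicle ZT12 replicate 2 or vehicle ZT12 replicate 3 (adjusted p of at most 0.0859). Kng2, its near copy, had group means of 164 to 199 FPKM. Reads of the pair could be split between them by the counting, so their levels are uncertain.

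Klkb1, plasma prekallikrein, was higher with Libramed at an unadjusted p under 0.05. It was at 58.6, 60.8 and 75.3 FPKM in vehicle ZT0, 83.9, 90.4 and 89.7 in Libramed ZT0, 58.0, 69.7 and 67.4 in vehicle ZT12, and 71.3, 83.5 and 78.9 in Libramed ZT12. The Libramed livers lay above the vehicle livers at each time, by 0.44 ± 0.12 at ZT0 and 0.26 ± 0.10 at ZT12 (limma, unadjusted p = 0.00641 and 0.0338, adjusted p = 0.436 and 0.729). Over both times the difference was 0.35 ± 0.08, with an adjusted p of 0.265 (limma) and an exact permutation p of 0.005. The ZT12 call was lost in 6 of 15 alternatives (unadjusted p up to 0.109 by limma or Cyber-T). These were quantile normalization, Cyber-T, and leaving out replicate 1 or 3 of vehicle ZT12 or replicate 2 or 3 of Libramed ZT12. F11, factor XI, whose gene is 4657 bp away, had group means between 47.5 and 53.3 FPKM with no p under 0.05. F12, factor XII, had 417 ± 24 and 377 ± 10 FPKM at ZT0 with vehicle and Libramed and 387 ± 18 and 422 ± 26 at ZT12 (SD, n = 3).

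Cpb2, the carboxypeptidase also called thrombin-activatable fibrinolysis inhibitor, was lower with Libramed at an unadjusted p under 0.05. It was at 311, 336 and 287 FPKM in vehicle ZT0, 225, 225 and 229 in Libramed ZT0, 287, 313 and 335 in vehicle ZT12, and 284, 273 and 252 in Libramed ZT12. At both times the Libramed livers lay below those of vehicle, and the Libramed ZT0 livers lay below all others. The differences were -0.45 ± 0.10 at ZT0 and -0.21 ± 0.09 at ZT12 (limma, unadjusted p = 0.00205 and 0.0478, adjusted p = 0.316 and 0.729). The ZT12 call was lost in 8 of 15 alternatives, among them when replicate 2 or 3 of either ZT12 group was left out. The others were median-ratio scaling, no variance trend, the replicate block and Cyber-T. The ZT0 call was lost under Cyber-T alone. Over both times Cpb2 differed by -0.33 ± 0.06 (limma, adjusted p = 0.153; exact permutation p = 0.005). Plg, which encodes plasminogen, averaged 1074 to 1148 FPKM and differed between treatments by 0.01 over both times (95% CI -0.13 to 0.14).

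**Figure D3:**
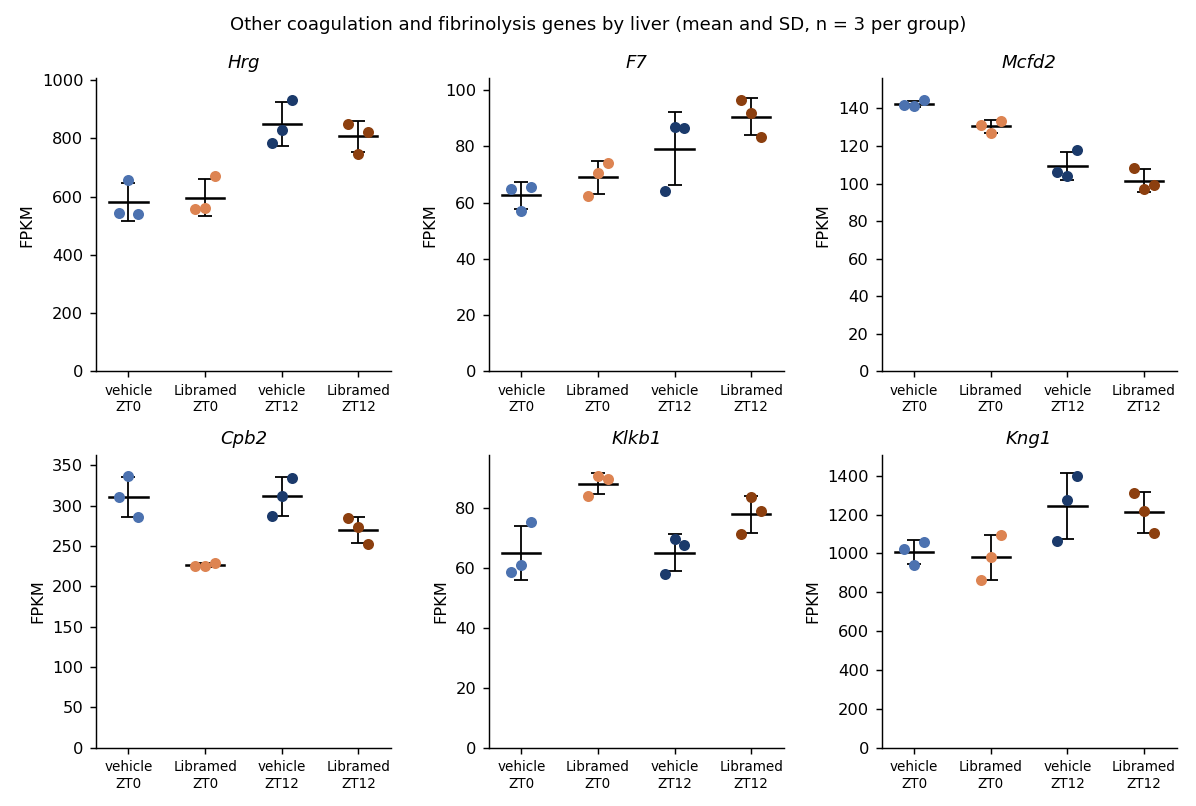
FPKM (y axis, from 0) of Hrg, F7, Mcfd2, Cpb2, Klkb1 and Kng1 in each of the 12 livers by group (x axis), with mean and SD (n = 3). The ZT12 livers are higher for Hrg and lower for Mcfd2, and at each time the Libramed livers lie below vehicle for Cpb2 and above it for Klkb1.

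Between treatments, 0 of the 26 members passed an adjusted p under 0.05 at ZT0, at ZT12 or over both times by limma, and 0 of all genes did. The version of Cyber-T called 12 genes at ZT0 and 2 at ZT12, 0 of them members. At an unadjusted p under 0.05 the count was 7 of 26 at ZT0, or 26.9% against 9.23% of all genes tested, and 6 of 26 at ZT12, or 23.1% against 6.74%. Over both times it was 7 of 26, against 10.5% of all genes. The 3 fibrinogen chains and Cpb2 (lower) and Klkb1 (higher) were in each of these counts. At ZT0 the others were Pros1, lower, and F3, higher, at ZT12 F5, lower, and over both times Lman1, lower, and Proc, higher. By Cyber-T the counts were 3 at ZT0 and 0 at ZT12. The ZT12 count was 1 without vehicle ZT12 replicate 3 or Libramed ZT12 replicate 2, and 2 without vehicle ZT12 replicate 2 or Libramed ZT12 replicate 3. Quantile normalization gave 3 higher and 4 lower at ZT0, where it had been 2 and 5, and 0 higher and 6 lower at ZT12, where it had been 1 and 5.

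**Figure D4:**
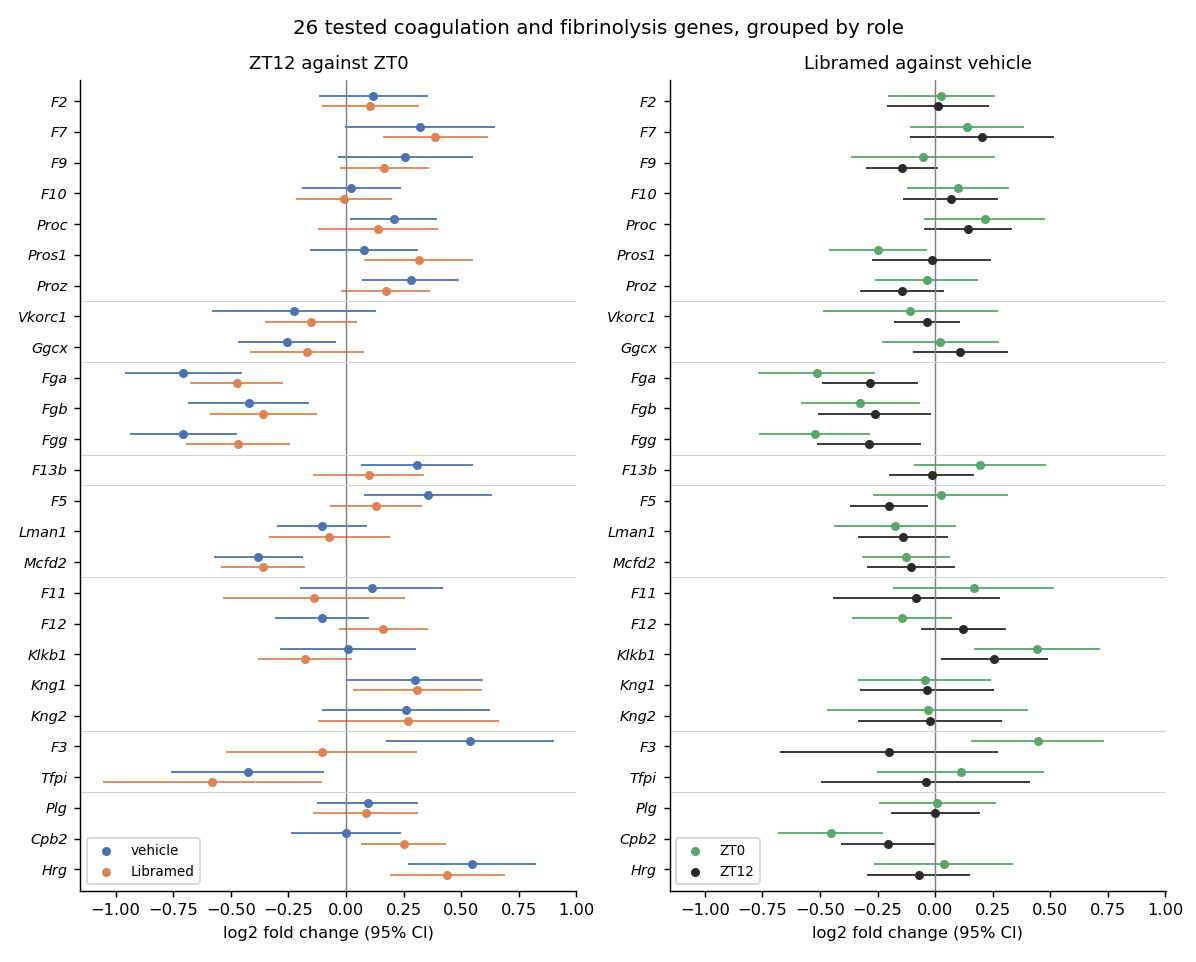
Log2 fold changes with 95% confidence intervals (x axis) of the 26 members tested (y axis, grouped by role, grey lines between roles), for ZT12 against ZT0 within each treatment on the left and Libramed against vehicle within each time on the right. Fga, Fgb and Fgg lie below 0 in all 4 comparisons, and Klkb1 lies above 0 in both comparisons of treatment.

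Except F13b, the members not yet described were scarce in whole liver, and several are products of endothelium, platelets or macrophages. Tfpi, the inhibitor of the tissue factor pathway, was at 1.33, 1.39 and 1.23 FPKM in vehicle ZT0, 2.03, 1.57 and 1.00 in Libramed ZT0, 0.611, 1.11 and 0.501 in vehicle ZT12, and 0.619, 1.10 and 0.371 in Libramed ZT12. With vehicle the times did not overlap, and with Libramed 1 liver of each time did. Tfpi fell by 0.50 ± 0.13 over both treatments (limma, adjusted p = 0.0152), a call that held under every alternative in which it was tested. F3, tissue factor, the trigger of clotting, averaged 1.18 ± 0.31 and 2.16 ± 0.47 FPKM at ZT0 and ZT12 with vehicle and 1.94 ± 0.01 and 1.80 ± 0.74 with Libramed (SD, n = 3). F13b, the carrier subunit of the fibrin crosslinking factor XIII, averaged 51.8 ± 6.1, 64.1 ± 2.4, 59.3 ± 5.9 and 63.5 ± 4.9 FPKM in vehicle ZT0, vehicle ZT12, Libramed ZT0 and Libramed ZT12 (limma, adjusted p = 0.0566 over time in both treatments), and its catalytic partner F13a1 at most 0.124 FPKM in any liver.

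Vwf, von Willebrand factor, which carries factor VIII, had 0.389 to 0.851 FPKM, Thbd, thrombomodulin, 0.217 to 1.10, Plat, tissue plasminogen activator, 0.0286 to 0.315, Plau, urokinase, 0.0246 to 0.418, and Plaur, its receptor, 0.0466 to 0.472. With no minimum on expression, Thbd and Plat were lower at ZT12 over both treatments, by 0.29 and 0.15 on the log2(FPKM + 1) scale (limma, adjusted p = 0.0256 and 0.0389), and 0 of the 7 scarce members passed the adjusted test between treatments. Endothelial markers moved with these: 10 of 10 tested were lower at ZT12 over both treatments. Of them 8 were lower at an adjusted p under 0.05 by limma, against 14.1% of all genes tested. The endothelial sums were 53.5 to 65.3 FPKM in vehicle ZT0, 64.1 to 77.3 in Libramed ZT0, 28.4 to 45.9 in vehicle ZT12 and 44.9 to 48.2 in Libramed ZT12. All 6 stellate cell markers tested had a lower mean log2 level at ZT12 over both treatments, 5 of them at an adjusted p under 0.05, against the same 14.1% of all genes. The part of these cells in the values of Tfpi, Thbd and Plat was not tested.

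Of 28 other genes of coagulation and fibrinolysis that are no members, 20 were tested. Over both treatments 5 of the 20 passed the adjusted test from ZT0 to ZT12, against 30.0% of all genes tested. Of these 2 were higher at ZT12, Hgfac, the activator of hepatocyte growth factor (0.36 on the log2 scale), and Asgr2, a subunit of the receptor that clears desialylated glycoproteins (0.24). The 3 that were lower were Anxa2 (-0.98) and S100a10 (-0.88), which together form a docking site for plasminogen on cells, and Tfpi2 (-0.59; limma, adjusted p from 1.90e-05 to 0.0137 for the 5). Serpina10, the protein Z dependent inhibitor, was at 223, 246 and 231 FPKM in vehicle ZT0 and at 158, 169 and 156 in Libramed ZT0. It was lower with Libramed at ZT0 and at ZT12 (-0.53 and -0.42, limma, unadjusted p = 5.92e-04 and 0.00441), with an adjusted p of 0.0779 over both times. Its cofactor Proz did not have p under 0.05 between treatments. In all, 5 of the 20 were lower with Libramed at ZT0 at an unadjusted p under 0.05, 1 at ZT12 and 5 over both times, and 0 were higher. Of all genes tested, 9.23%, 6.74% and 10.5% had such a p in either direction in these comparisons.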

How the data were processed

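Liver RNA of 12 mice was sequenced as single-end mRNA libraries. The methods describe a stranded kit and the labels name TruSeq RNA v2. The authors aligned reads to mm10 with ELAND according to the methods, while the submitters' processing notes name TopHat and Cuffnorm. The authors deposited their values as 1 table of FPKM, named RPKM in the methods. Where a symbol was repeated (289 of 24138 lines), its line of highest mean was used. This gave 23849 symbols, and 6783 were 0 in every library. FPKM is scaled to the library total, so a change in very abundant genes moves all others. No counts were used.

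Values were analysed as log2(FPKM + 1) for the 9806 symbols with a mean of at least 1 FPKM. Changes of scarce genes are understated on this scale. limma 3.58.1 in R 4.3.3 (lmFit, eBayes with trend, two-sided) was fitted to the 6 samples of each pair of groups, and to all 12 for the interaction and for effects over both times or treatments, with Benjamini-Hochberg adjustment over all symbols tested and a threshold of 0.05. Exact permutations of labels within strata used 400 arrangements and their p-values are unadjusted. The labels call the samples of a group biological replicates. The calculations were tested on simulated data. Alternatives were a pseudocount of 0.1, no minimum or a minimum of 5 FPKM, no variance trend, median-ratio scaling, quantile normalization, the replicate block, pairwise contrasts from a fit of all 12 samples, a version of Cyber-T on log2(FPKM + 1) (window 101, prior weight 10) and leaving out each library.

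Members, lists and tests were chosen with earlier results of these data known. Values in every sample are given for the 12 members with the smallest p over the 7 comparisons, and group means or ranges for the others. Promoters from RefSeq matched all 4 genes shown.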

Additional observations from a re-analysis of the deposited data

Results flagged for a closer look

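In the test of the interaction itself, 2 members had an unadjusted p under 0.05 (limma). That is 7.69% of 26, near the 6.63% of all genes tested. The interaction of F12, factor XII, was 0.27 ± 0.11 (SE) on the log2 scale (limma, unadjusted p = 0.0338, adjusted p = 0.725). Libramed livers averaged 90.4% of vehicle at ZT0 and 109% at ZT12. The interaction of F3, tissue factor, was -0.64 ± 0.25 (limma, unadjusted p = 0.0254, adjusted p = 0.691), with 165% of vehicle at ZT0 and 83.1% at ZT12, at levels of 0.817 to 2.67 FPKM. Neither passed the adjusted threshold. The F12 call was lost in 6 of 19 alternatives, among them quantile normalization. It was also lost without vehicle ZT0 replicate 1, Libramed ZT0 replicate 2, vehicle ZT12 replicate 1 or 3, or Libramed ZT12 replicate 1. The F3 call was lost in 4 of 18, without replicate 1 of either vehicle group or Libramed ZT12 replicate 2 or 3. When replicate 1 of vehicle ZT0 or of vehicle ZT12 was left out, 0 members had p under 0.05 for the interaction, and 1 had it without Libramed ZT0 replicate 2 or Libramed ZT12 replicate 2.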

How the results depend on the processing

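For the count of members with an adjusted p under 0.05 from ZT0 to ZT12 with vehicle (4), the fit over all 12 samples gave 7 and Cyber-T 0, and leaving out 1 liver gave 0 to 3. With Libramed (5), no minimum on FPKM gave 2 and Cyber-T 0, and leaving out 1 liver gave 0 to 4. Over both treatments (11) leaving out 1 liver gave 8 to 14. For members with an unadjusted p under 0.05 between treatments, Cyber-T gave 3 at ZT0 (7) and 0 at ZT12 (6), and leaving out 1 liver gave 5 to 8 at ZT0, 1 to 7 at ZT12 and 5 to 8 over both times (7). For the interaction (2), a minimum of 5 FPKM and quantile normalization each gave 1, and leaving out 1 liver gave 0 to 3. Correlations between samples of one replicate number ran from -0.28 to 0.34. Samples of different numbers were not compared, so whether the numbers pair the samples was not settled. With the number as a replicate block the counts were 0 with vehicle over time, 1 with Libramed and 2 between treatments at ZT12, and all genes called over time with vehicle went from 1020 to 279. Over single members, 438 of 507 values under settings other than a left-out liver kept their direction and side of the threshold. With 1 liver left out, 433 of 540 did and 99 lost their call. Values that missed the threshold both in the main fit and in the alternative are among those kept. The exceptions in direction were Proc over time under quantile normalization (-0.0147) and the Fgb interaction under quantile normalization (-0.22) and without vehicle ZT12 replicate 1. With 1 liver left out that interaction ran from -0.000568 to 0.14. The cause of these changes was not tested. Without read counts no counting error can be given, and 3 mice per group limit what single comparisons can show: the exact test of 3 against 3 cannot go below p = 0.1.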
